A study of Mus musculus with 6 samples.

Results

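Retinoid handling genes encode the enzymes and carriers that make, hold and destroy retinoic acid, the active form of vitamin A. The 9 genes described here are Rdh10, Dhrs9, Aldh1a1, Aldh1a3, Crabp1, Crabp2, Rbp2, Cyp26b1 and Stra6. They were picked by gene symbol from the 19938 genes that carried a probe set with a single symbol, and all 9 had such a probe set, 1 each. They were put together with the values of these same arrays already known, so their levels, differences and calls are a description and carry no p-value here. Stra6 takes retinol into cells and Rbp2 binds it there. Retinol is oxidised to retinaldehyde by dehydrogenases such as Rdh10 and Dhrs9, and retinaldehyde to retinoic acid by Aldh1a1 and Aldh1a3. Crabp1 and Crabp2 bind retinoic acid in the cytoplasm, and Cyp26b1 oxidises it for removal. In epidermis, retinoic acid acts through nuclear receptors and is long known to restrain keratinization.

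The RNA of cultured mouse keratinocytes was hybridised to 6 Affymetrix arrays that cover whole transcripts, with 2 arrays for each of 3 genotypes. The series asked what the loss of Ovol1, or of Ovol1 with Ovol2, does to calcium-treated keratinocytes. Ovol1 and Ovol2 are zinc finger transcription factors of epithelia. The double knockout (DKO) animals were Ovol2flox/-;K14-Cre and Ovol1-/-, the Ovol1 KO animals were Ovol1-/-, and the control animals were Ovol2flox/+ with either Ovol1+/- or K14-Cre. DKO and Ovol1 KO thus shared the loss of both Ovol1 copies, and every control animal carried a floxed Ovol2 allele. Which control array held which of these genotypes is not given in the sources used here. K14-Cre is named for DKO but not for Ovol1 KO, so by label these groups differ in Cre as well as in Ovol2. K14-Cre acts in basal keratinocytes, so the floxed copy is lost only in cells of that lineage, while the other Ovol2 copy of DKO animals is missing in all cells. All animals were C57BL/6 embryos of stage E18.5. Their cells grew for 2 to 5 days, received calcium, which starts keratinocyte differentiation, and grew for another 3 to 5 days. Each array held RNA of 2 mice, and the labels call the arrays of a group biological replicates without naming the animals, so the spread given is that between pools. The number of arrays limits the precision.

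Of 11 keratinocyte markers, the basal keratins Krt5 and Krt14 lay between 13.61 and 13.94 on the log2 scale on all 6 arrays. The list as a whole was not level: its summed intensity was 124700 and 91893 in DKO, 72863 and 74100 in Ovol1 KO, and 71834 and 72539 in control. Of the 11 markers 3 rose in DKO against control, 0 fell and 8 did not pass. Those that rose were the keratins of differentiating epidermis Krt1 (log2 fold change 4.15, limma adjusted p = 0.022) and Krt10 (4.14, adjusted p = 0.0035), and the basal keratin Krt15 (4.06, adjusted p = 0.027). Krt1 lay at 14.70 and 12.40 in DKO, 8.97 and 9.27 in Ovol1 KO, and 9.48 and 9.33 in control. The value of 14.70 is the top of the quantile-normalized scale, which limits what the size of its rise can show. The keratin makeup thus moved with the genotype beside the genes described below, and its part in them was not tested. Ovol1 lay at 10.58 and 10.59 in DKO, 10.53 and 10.22 in Ovol1 KO, and 10.27 and 9.85 in control. Ovol2 lay at 8.71 and 8.32 in DKO, 9.005 and 8.993 in Ovol1 KO, and 8.12 and 8.82 in control. Whether either probe set lies in the deleted part is not given in the sources used here, so these levels check no label. The labels call every animal female, but the female-specific RNA Xist lay at 12.12 and 12.26 in DKO, 4.59 and 11.97 in Ovol1 KO, and 4.71 and 4.65 in control. Control 1, control 2 and Ovol1 KO 1 therefore went against the label, and genotype and sex cannot be told apart between DKO and control. Values for DKO against Ovol1 KO 2 alone, which matches in Xist level but not in replicate number, are given below. Melanocyte markers, taken as a sum, separated replicate 1 from replicate 2. The summed intensity of 8 markers was 1875 and 1081 in DKO, 6729 and 1497 in Ovol1 KO, and 5122 and 1409 in control. Of the 8 only Kit passed, and it fell in DKO against control (log2 fold change -1.43, limma adjusted p = 0.035). Kit did not follow the split of the sum in Ovol1 KO, where it lay at 8.60 and 8.58. In DKO it lay at 6.78 and 6.13, and in control at 8.07 and 7.70, with replicate 1 higher in both. The lineage gene Sox10 had a value of -0.20 in DKO against control (limma adjusted p = 0.79). Mitf, another lineage gene of the 8, had a value of -0.96 (limma adjusted p = 0.27) and did not pass. It lay at 8.60 and 8.48 in DKO, 9.83 and 9.06 in Ovol1 KO, and 9.92 and 9.08 in control. Both DKO arrays were thus below the other 4 for Mitf. Of 5 endothelial markers, the summed intensity was 377 and 364 in DKO, 1339 and 693 in Ovol1 KO, and 1809 and 659 in control. Kdr lay at 6.79 and 6.65 in DKO, 9.95 and 8.63 in Ovol1 KO, and 10.49 and 8.51 in control. Pecam1 lay at 6.20 and 5.98 in DKO, 7.61 and 6.78 in Ovol1 KO, and 7.67 and 6.75 in control. Both were lower on each DKO array than on the other 4, though neither passed, while Cdh5, which defines the cell type, lay between 6.77 and 7.06 throughout. Of 6 Merkel cell markers, the summed intensity was 2095 and 1339 in DKO, 17961 and 10825 in Ovol1 KO, and 20665 and 12363 in control, carried by the simple epithelium keratins Krt8 and Krt18. The defining Merkel cell genes Atoh1 and Krt20 lay between 6.34 and 7.53 on every array. Of 9 fibroblast markers, the summed intensity was 1474 and 2099 in DKO, 1824 and 1531 in Ovol1 KO, and 1591 and 1685 in control. Its members did not move alike in DKO against control, since Pdgfra fell (log2 fold change -1.06, limma adjusted p = 0.031) and Dcn had a value of 0.83 (adjusted p = 0.29). Of 3 Schwann cell markers, the summed intensity was 1487 and 1783 in DKO, 2319 and 2339 in Ovol1 KO, and 2542 and 2536 in control. In DKO against control Mbp fell (-1.15, limma adjusted p = 0.015). Ngfr (-0.24, adjusted p = 0.78) and S100b (0.19, adjusted p = 0.84) did not pass and had opposite signs. Of 6 immune markers, 0 passed in limma, and the summed intensity was 576.1 and 668.7 in DKO, 533.3 and 600.0 in Ovol1 KO, and 619.2 and 555.4 in control. The part of other cell types in the results below was not tested, and fewer cells of a type cannot be told apart from less RNA per cell.

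The loss of both Ovol genes came with lower levels of a retinol dehydrogenase, of a retinaldehyde dehydrogenase and of a retinoic acid carrier, and with a higher level of a retinol carrier. Values are log2(intensity + 16) after quantile normalization, and fold changes are on that scale. A gene was called where its adjusted p in limma was below 0.05 over all 19938 genes. In DKO against control 3 of the 9 genes fell (Rdh10, Aldh1a3 and Crabp1), 1 rose (Rbp2) and 5 did not pass, where 3.20% of all genes were called in either direction, 2.26% lower and 0.943% higher. Their median log2 fold change was -0.56, against 0.02 over all genes. In DKO against Ovol1 KO the same 3 genes fell and 6 did not pass, where 2.15% of all genes were called, 1.49% lower and 0.657% higher. The median of the 9 genes was -0.25 there, against 0.09 over all genes. In Ovol1 KO against control 0 of the 9 genes and 0% of all genes were called by limma. In that comparison 0 of the 9 had an unadjusted p below 0.05, against 162 of all genes, or 0.813%. The 3 comparisons share arrays, and their values are given side by side only.

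**Figure D1:**
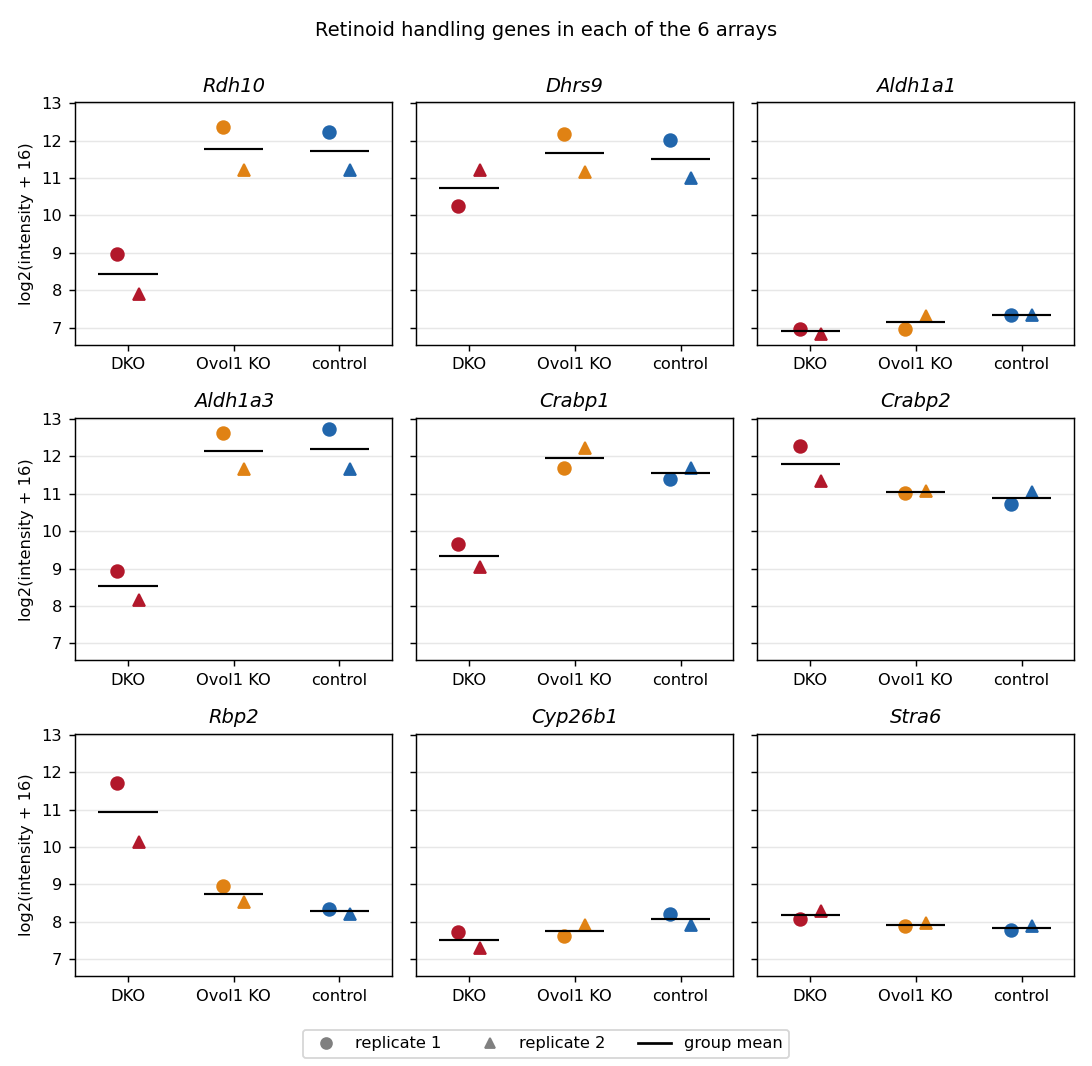
Level of each of the 9 genes as log2(intensity + 16) on every array, by genotype, with circles for replicate 1, triangles for replicate 2 and a line at the group mean. Rdh10, Aldh1a3 and Crabp1 lie lower on both DKO arrays than on the other 4, and Rbp2 lies higher.

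Among the enzymes that make retinaldehyde, Rdh10 is the main retinol dehydrogenase of the mouse embryo. It lay at 8.97 and 7.90 in DKO, 12.37 and 11.21 in Ovol1 KO, and 12.24 and 11.22 in control. Both DKO arrays were below the other 4, which paired off by replicate number and hardly differed by genotype. As deposited, its intensity was 490.5 and 235.3 in DKO, 5183 and 2333 in Ovol1 KO, and 4917 and 2371 in control. In DKO against control the log2 fold change was -3.29 (SE 0.52), which is 9.81-fold lower, and -3.35 in DKO against Ovol1 KO (SE 0.52). Ovol1 KO differed from control by 0.06 (SE 0.52, 95% interval -1.19 to 1.30). Only 56 of all genes had a lower fold change than Rdh10 in DKO against control. The call against control was lost without either DKO array, where the value was -3.83 without DKO 1 and -2.76 without DKO 2. The call against Ovol1 KO was lost with any DKO or Ovol1 KO array left out.

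Dhrs9, a retinol dehydrogenase described in epithelia, did not follow Rdh10. It lay at 10.26 and 11.22 in DKO, 12.18 and 11.16 in Ovol1 KO, and 12.01 and 11.01 in control. DKO 1 was below all other arrays, while DKO 2 lay within the range of the controls. Its log2 fold change was -0.77 in DKO against control (SE 0.48, 95% interval -1.91 to 0.37) and -0.93 in DKO against Ovol1 KO (SE 0.48), and neither passed. With Xist as a covariate the value against control turned to 0.24, in a fit that cannot tell Xist from replicate number, as given below. Its replicate 1 was above replicate 2 by 1.02 in Ovol1 KO and by 1.003 in control, and below it by 0.97 in DKO.

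Aldh1a3 makes retinoic acid from retinaldehyde and showed the largest fold change of the 9 genes. It lay at 8.93 and 8.16 in DKO, 12.64 and 11.67 in Ovol1 KO, and 12.73 and 11.65 in control. As deposited, its intensity was 473.5 and 279.4 in DKO, 6216 and 3225 in Ovol1 KO, and 6717 and 3199 in control. Every DKO value was thus far below every other, and Ovol1 KO and control overlapped. DKO against control gave a log2 fold change of -3.65 (SE 0.46), which is 12.5-fold lower, and -3.61 in DKO against Ovol1 KO (SE 0.46). Ovol1 KO differed from control by -0.04 (SE 0.46, 95% interval -1.13 to 1.06). A lower fold change was seen for 41 of all genes in DKO against control. The call against control was lost without DKO 2, at -3.26, and that against Ovol1 KO without either DKO array or Ovol1 KO 1.

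Rdh10 and Aldh1a3 also split by replicate number in the same way. Replicate 1 was above replicate 2 for Rdh10 by 1.07 in DKO, 1.16 in Ovol1 KO and 1.01 in control. For Aldh1a3 the same differences were 0.77 in DKO, 0.97 in Ovol1 KO and 1.07 in control. The melanocyte gene Tyrp1 was higher in replicate 1 as well, by 2.74 in DKO, 5.42 in Ovol1 KO and 4.71 in control, and so was Kdr in each genotype. The difference between genotypes was larger than this spread for both enzymes.

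Aldh1a1, a further retinaldehyde dehydrogenase, was dim on every array. It lay at 6.96 and 6.84 in DKO, 6.97 and 7.32 in Ovol1 KO, and 7.35 and 7.34 in control. Each DKO array was below both controls, though by little, and Ovol1 KO 1 was as low as DKO 1. In DKO against control the log2 fold change was -0.45 (SE 0.18, 95% interval -0.86 to -0.03) and -0.24 in DKO against Ovol1 KO (SE 0.18), and neither passed. Aldh1a7, a close mouse paralogue whose probe set may share its signal, lay at 6.53 and 5.81 in DKO, 6.90 and 7.29 in Ovol1 KO, and 7.33 and 7.13 in control. Its log2 fold change in DKO against control was -1.06 (SE 0.27, limma adjusted p = 0.11).

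The carriers of retinoic acid, Crabp1 and Crabp2, had log2 fold changes of opposite sign. Crabp1 lay at 9.65 and 9.05 in DKO, 11.69 and 12.21 in Ovol1 KO, and 11.40 and 11.70 in control. On both DKO arrays it was below the other 4, and the replicates did not split as for Rdh10, since replicate 1 was above replicate 2 by 0.60 in DKO and below it in the other groups. Its log2 fold change was -2.20 in DKO against control (SE 0.26), which is 4.59-fold lower, and -2.60 in DKO against Ovol1 KO (SE 0.26). Of the 9 genes it had the narrowest spread relative to its difference, and both calls held with any single array left out, at -2.50 to -1.90 against control and -2.91 to -2.31 against Ovol1 KO. Ovol1 KO was 0.41 above control (SE 0.26, 95% interval -0.22 to 1.03).

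Crabp2, which in the cell delivers retinoic acid to its nuclear receptor, lay at 12.27 and 11.33 in DKO, 11.01 and 11.06 in Ovol1 KO, and 10.71 and 11.05 in control. Both DKO arrays were above the other 4, DKO 2 only slightly. DKO against control gave a log2 fold change of 0.92 (SE 0.30, 95% interval 0.22 to 1.62) and 0.77 in DKO against Ovol1 KO (SE 0.30), and neither passed over all genes. Without DKO 1 the value against control was 0.45, and without DKO 2 it was 1.39.

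Rbp2, a retinol and retinaldehyde carrier best known from the intestine, lay at 11.72 and 10.14 in DKO, 8.96 and 8.52 in Ovol1 KO, and 8.36 and 8.21 in control. Each DKO array was above all others, but they stood further apart than those of any other group for this gene. As deposited, its intensity was 3324 and 1049 in DKO, 500.8 and 352.6 in Ovol1 KO, and 301.0 and 280.3 in control. In DKO against control the log2 fold change was 2.65 (SE 0.48), which is 6.27-fold higher, and 49 of all genes had a higher one. Against Ovol1 KO it was 2.19 (SE 0.48) and did not pass, and Ovol1 KO was 0.46 above control (SE 0.48, 95% interval -0.67 to 1.59). With single arrays left out the value against control ran from 1.86 to 3.44, lowest without DKO 1, and the call was lost without either Ovol1 KO array and in a fit of only the 4 arrays compared. The difference from Ovol1 KO passed without DKO 2, without either control array and in a fit of only the 4 arrays compared. DKO 1 was above DKO 2 by 1.58 for Rbp2 and by 0.94 for Crabp2.

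The stretches before the starts of Crabp1 and Rbp2 are shown because they are the called genes, 1 lower and 1 higher in DKO, for which the RefSeq promoter table (GRCm38.p6) held an entry. That table matched 6 of the 9 genes, in 10 windows. Each sequence is the 250 bases before the start, 5′ to 3′ on the plus strand, at chr9:54764498-54764747 for Crabp1 and chr9:98490287-98490536 for Rbp2. Capitals mark a match on either strand to the hexamer AGGTCA, which nuclear receptors including those of retinoic acid bind, or to CCGTTA, the core bound by Ovol proteins. On the opposite strand the first reads TGACCT. The 2 motifs share no position in these windows, since the second had 0 matches.
Crabp1: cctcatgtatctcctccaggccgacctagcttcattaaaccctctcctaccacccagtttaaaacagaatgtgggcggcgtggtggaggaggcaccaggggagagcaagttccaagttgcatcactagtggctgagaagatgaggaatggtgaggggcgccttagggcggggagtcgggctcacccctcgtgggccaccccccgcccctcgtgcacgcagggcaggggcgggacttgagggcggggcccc
Rbp2: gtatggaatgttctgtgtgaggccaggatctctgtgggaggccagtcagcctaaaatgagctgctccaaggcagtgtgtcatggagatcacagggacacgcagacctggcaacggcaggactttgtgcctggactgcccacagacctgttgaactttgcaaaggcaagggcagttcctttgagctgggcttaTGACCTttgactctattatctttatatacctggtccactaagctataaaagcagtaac
Rbp2 had 1 match to the AGGTCA hexamer, on the minus strand and 58 bases before the start, and Crabp1 had 0. Of the other genes, Dhrs9 had 1, and the windows of Aldh1a1, Cyp26b1 and Stra6 had 0. The hexamer occurred in 4607 of the 32851 windows of the table, or 14.02%. The Ovol core occurred in 2.18% of them and in 0 of the 10 windows of these genes.

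Cyp26b1, the retinoic acid hydroxylase, lay at 7.74 and 7.29 in DKO, 7.62 and 7.91 in Ovol1 KO, and 8.22 and 7.93 in control. On both DKO arrays it was below both controls, while DKO and Ovol1 KO overlapped. Its log2 fold change was -0.56 in DKO against control (SE 0.23, 95% interval -1.10 to -0.02) and -0.25 in DKO against Ovol1 KO (SE 0.23), and neither passed. Stra6, the membrane receptor through which retinol enters cells, lay at 8.07 and 8.28 in DKO, 7.89 and 7.96 in Ovol1 KO, and 7.79 and 7.88 in control. Both DKO arrays were just above the other 4. DKO against control gave a log2 fold change of 0.34 (SE 0.17, 95% interval -0.07 to 0.75) and 0.25 in DKO against Ovol1 KO (SE 0.17), and neither passed.

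Non-overlap of the 2 arrays a group was common. DKO and control did not overlap for 8 of the 9 genes, where 44.6% of all genes were so separated. DKO and Ovol1 KO did not overlap for 7 of the 9 (42.2% of all genes), and Ovol1 KO and control for 4 of the 9 (24.1% of all genes).

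**Figure D2:**
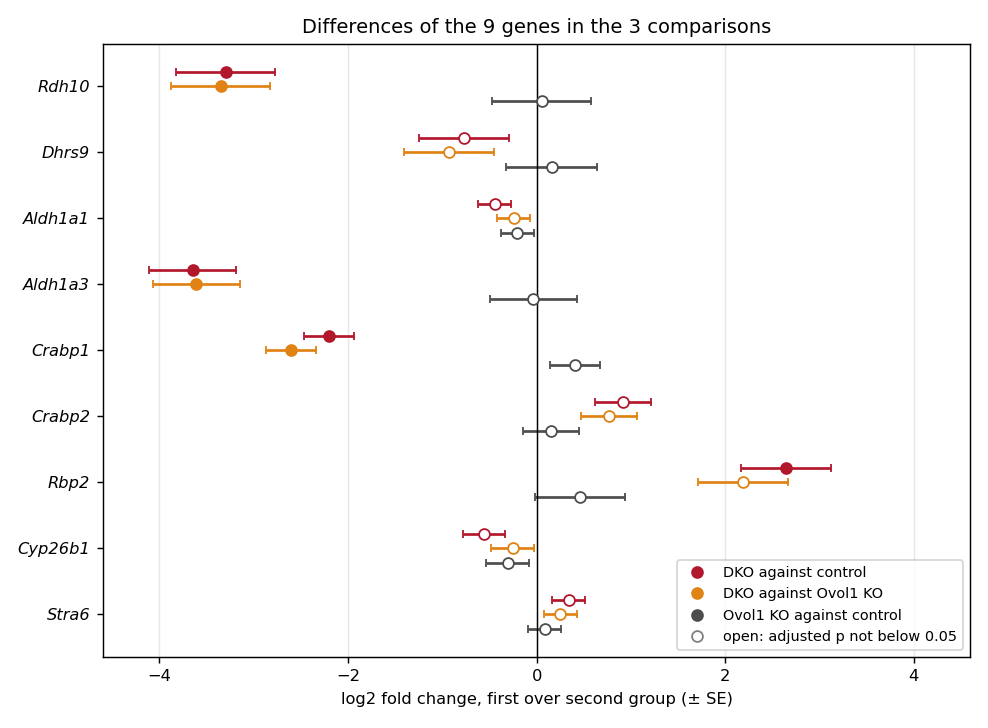
Log2 fold change ± SE of the 9 genes in DKO against control, DKO against Ovol1 KO and Ovol1 KO against control, with filled points where the adjusted p was below 0.05. Rdh10, Aldh1a3 and Crabp1 lie between -3.65 and -2.20 in both comparisons with DKO, while all 9 values of Ovol1 KO against control lie between -0.31 and 0.46.

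Among the arrays that share a high Xist level, DKO 1 and DKO 2 can be set against Ovol1 KO 2. In this setting the log2 fold change was -2.77 for Rdh10 (SE 0.57), -3.12 for Aldh1a3 (SE 0.52), -2.86 for Crabp1 (SE 0.30) and 2.40 for Rbp2 (SE 0.62). The 4 genes kept their direction, and Crabp1 alone was called. Replicate number was not matched in this setting, since Ovol1 KO 2 is a replicate 2 array. Rdh10 and Aldh1a3 lay lower in replicate 2 than in replicate 1 in every genotype. For Rdh10, DKO 2 lay at 7.90 and Ovol1 KO 2 at 11.21. Against control no arrays of like Xist level exist for DKO. When Xist was added as a covariate, the values against control were -2.10 for Rdh10, -2.65 for Aldh1a3, -2.71 for Crabp1 and 3.12 for Rbp2, and 0 of the 4 were called, where 8 of all genes were called. That fit takes its Xist slope almost only from Ovol1 KO 1 against Ovol1 KO 2, which also differ in replicate number. It thus cannot tell Xist from replicate number. Rdh10 was higher in replicate 1 by 1.16 in Ovol1 KO, 1.07 in DKO and 1.01 in control. The part of Xist level or of replicate number in these values was not tested.

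Genes outside the 9 were taken from 5 lists of the retinoid pathway, and 60 genes of those lists were measured. The lists held further enzymes of synthesis and storage, further carriers, further enzymes of breakdown, nuclear receptors with their cofactors, and genes known to respond to retinoic acid. In DKO against control 1 of the 60 rose, 1 fell and 58 did not pass, again where 3.20% of all genes were called. Their median log2 fold change was 0.14, against 0.02 over all genes. In DKO against Ovol1 KO 0 rose and 2 fell, while 58 did not pass. The median there was 0.21, against 0.09 over all genes. In Ovol1 KO against control limma called 0, and the unadjusted p was below 0.05 for 2 of the 60, against 0.813% of all genes.

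Of 28 further synthesis and storage genes limma called 0 in DKO against control, and their median log2 fold change was 0.15. The unadjusted p was below 0.05 for 7 of the 28, against 14.5% of all genes. The gene of smallest p was Rdh9, of a mouse family of closely related dehydrogenases whose probe sets may not separate the copies. It lay at 7.41 and 7.71 in DKO, 6.49 and 6.58 in Ovol1 KO, and 6.55 and 6.91 in control. In DKO against control the log2 fold change was 0.83 (SE 0.19, adjusted p = 0.080 in limma) and 1.03 against Ovol1 KO (SE 0.19, adjusted p = 0.051). Aldh1a7, given above, was next. Of the 28 genes, none fell as Rdh10 and Aldh1a3 did, and the lowest value was that of Aldh1a7. The highest value in DKO against control was that of Bco2, 1.94 (SE 0.54, limma adjusted p = 0.14), which did not pass. Bco2 was named after its value was seen.

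Of 8 further carriers 1 rose, Fabp5, an epidermal fatty acid binding protein that also carries retinoic acid. It lay at 13.43 and 13.27 in DKO, 13.04 and 12.96 in Ovol1 KO, and 12.96 and 12.88 in control. Each DKO array was above the other 4 by a small and even step. Its log2 fold change was 0.43 in DKO against control (SE 0.08, adjusted p = 0.043 in limma) and 0.35 against Ovol1 KO (SE 0.08, adjusted p = 0.10). The call against control was lost with any single array left out. A second probe set of the gene gave 0.46 and 0.36.

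Of 4 further breakdown genes 0 passed. Cyp2s1, a cytochrome P450 of epithelia whose human counterpart can oxidise retinoic acid, lay at 12.16 and 10.63 in DKO, 8.86 and 9.53 in Ovol1 KO, and 8.77 and 9.78 in control. On both DKO arrays it was above the other 4, DKO 2 by less. By limma the DKO level was 2.12 above control (SE 0.55, adjusted p = 0.11) and 2.21 above Ovol1 KO (SE 0.55, adjusted p = 0.12). Cyp26a1, the closest relative in role of Cyp26b1, had a log2 fold change of -0.27 in DKO against control (SE 0.17, adjusted p = 0.55) and was dim throughout, between 5.86 and 6.34.

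Of 11 receptors and cofactors 0 passed in DKO against control and 1 fell in DKO against Ovol1 KO. Rxrg, a retinoid X receptor that pairs with other nuclear receptors, lay at 6.12 and 5.92 in DKO, 7.23 and 7.48 in Ovol1 KO, and 6.72 and 6.56 in control. The 3 groups did not overlap, with Ovol1 KO highest and DKO lowest. The log2 fold change was -1.34 in DKO against Ovol1 KO (SE 0.17, limma adjusted p = 0.013), -0.62 in DKO against control (SE 0.17, adjusted p = 0.13) and 0.72 in Ovol1 KO against control (SE 0.17, adjusted p = 1.0). The call was lost without either Ovol1 KO array or DKO 2. Its deposited intensities were low, 49.9 and 48.8 in DKO, 143.8 and 157.4 in Ovol1 KO, and 83.9 and 79.1 in control, with no detection call. Of the receptors of retinoic acid, Rara and Rarg had small positive values that did not pass, as had Rxra, their main partner in epidermis. The third receptor, Rarb, had a value of -0.06 in DKO against control (SE 0.16, limma adjusted p = 0.93). These genes were named after their values were seen. The log2 fold change in DKO against control was 0.74 for Rara (SE 0.20, limma adjusted p = 0.12), 0.52 for Rarg (SE 0.19, adjusted p = 0.28) and 0.52 for Rxra (SE 0.17, adjusted p = 0.21).

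Of 14 genes known to respond to retinoic acid in some cell types, 1 fell in DKO against control and in DKO against Ovol1 KO, Krt19, a keratin of simple epithelia. It lay at 8.52 and 5.58 in DKO, 11.85 and 12.24 in Ovol1 KO, and 11.06 and 11.34 in control. DKO 2 was lower than DKO 1 by far, and both were below the other 4. Krt19 fell by 4.15 on the log2 scale in DKO against control (SE 0.82, limma adjusted p = 0.048) and fell by 4.99 against Ovol1 KO (SE 0.82, adjusted p = 0.034). Both calls were lost without either Ovol1 KO array, and the keratins Krt8 and Krt18 given above were lower in DKO as well. For Krt19 the call against control was also lost with an offset of 1 and without the dimmest 30% of genes. That call was lost as well without the eBayes trend and with only the 4 arrays compared. Both calls of Krt19 were lost with the robust eBayes setting and with Xist as a covariate. The remaining 13 did not pass. The median of the 14 was -0.04 in DKO against control. Genes that retinoic acid raises in many cells are among the 13, and their log2 fold changes in DKO against control were -0.06 for Rarb (SE 0.16, limma adjusted p = 0.93), 0.85 for Dhrs3 (SE 0.63, adjusted p = 0.65) and -0.02 for Lrat (SE 0.15, adjusted p = 0.98). Among the 13, Hbegf had the lowest value in DKO against control, -1.20 (SE 0.32, limma adjusted p = 0.12), and Dhrs3 the highest. For Hbegf both DKO arrays were below the other 4. Rarres1 had a value of -0.78 (SE 0.48, adjusted p = 0.56). Rarb, Dhrs3, Lrat, Hbegf and Rarres1 were named after their values were seen.

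**Figure D3:**
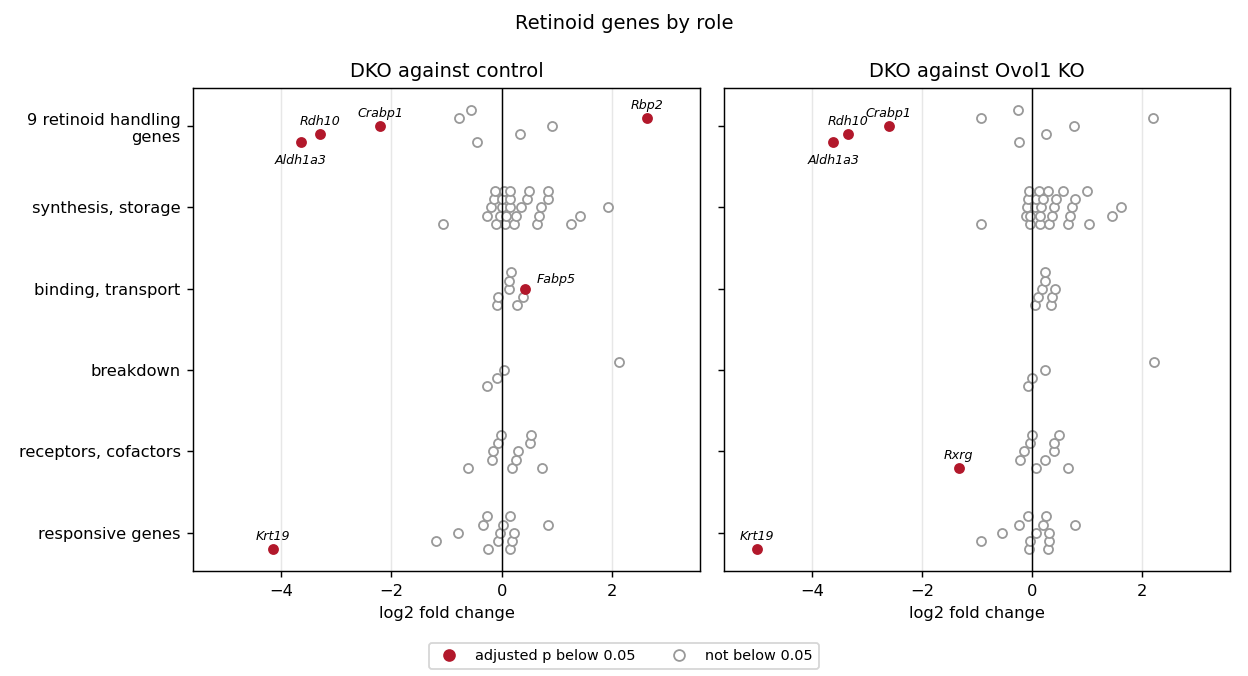
Log2 fold change of the 9 genes and of the other retinoid genes by role, in DKO against control (left) and DKO against Ovol1 KO (right), with 1 point a gene and filled points where the adjusted p was below 0.05. Called genes outside the top row are Fabp5 and Krt19 on the left, and Rxrg and Krt19 on the right. Genes of 2 lists are drawn in both.

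The genes whose levels over the 6 arrays were most like those of the 4 called genes were sought among 2902 named genes with a range of at least 1 log2 unit. The likeness is Pearson's r over 6 arrays, set largely by the gap between DKO and the other arrays, and is a description. For Rdh10 they were Lmo7, Plekhh1 and Nr2f2, with r from 0.997 to 0.999. For Aldh1a3 they were Scnn1a, Wipi1 and Tmprss11d, with r from 0.998 to 0.999. For Crabp1 they were Sorbs2, Gmds and Gcnt3, with r from 0.989 to 0.997. For Rbp2 they were Cyp2w1, Fcamr and Anpep, with r from 0.9896 to 0.9961. The log2 fold change in DKO against control was -1.74 for Lmo7, -2.52 for Scnn1a, -2.49 for Sorbs2 and 2.91 for Cyp2w1, the first of each trio.

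**Figure D4:**
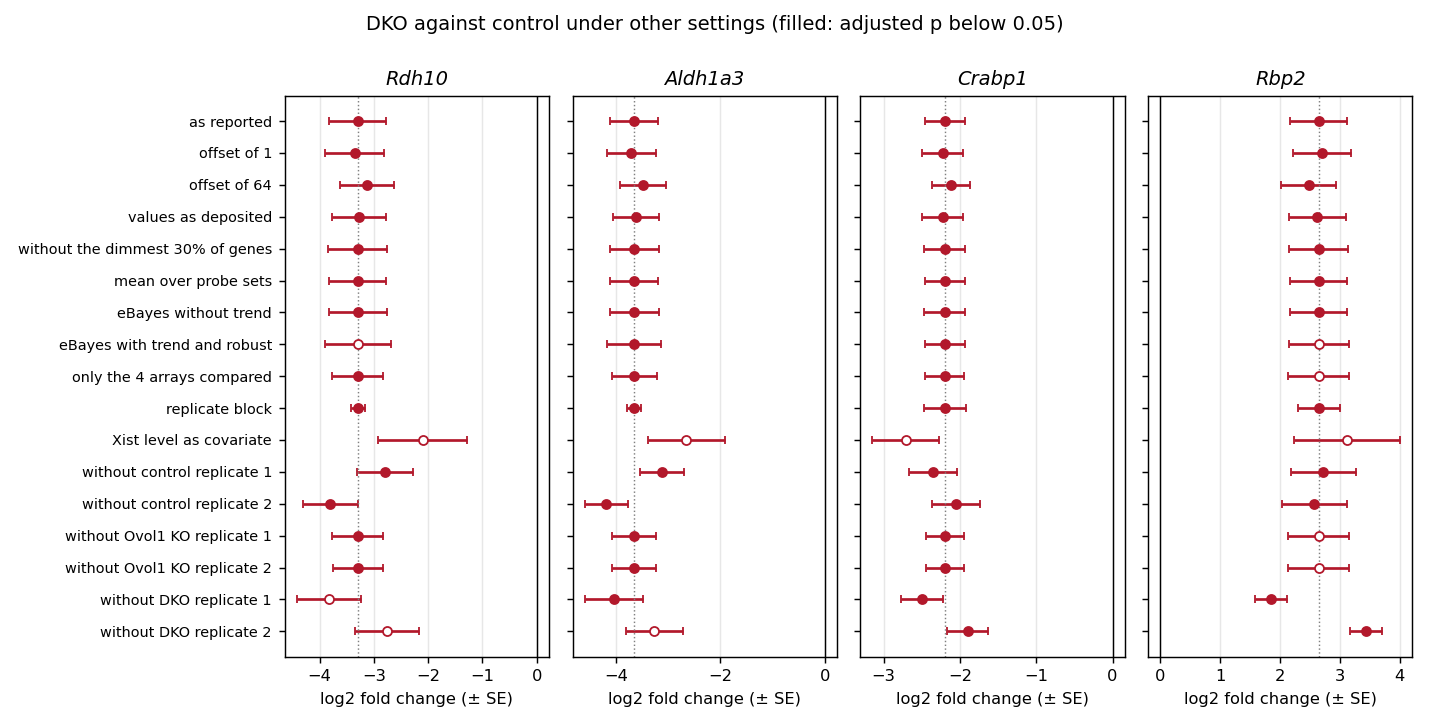
Log2 fold change ± SE of Rdh10, Aldh1a3, Crabp1 and Rbp2 in DKO against control as reported (dotted line) and under the 16 other settings, filled where the adjusted p was below 0.05. The sign is the same at every setting, and with Xist as a covariate the points of all 4 genes are open.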

How the data were processed

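Total RNA of keratinocytes was hybridised to Affymetrix arrays. The authors deposited linear intensities, already summarised to 1 value per probe set and array. Per the submitters' processing notes, the tools were Affymetrix Expression Console 1.1.1 and PLIER 2.0. How background, scaling between arrays and filters were handled is not given in the sources used here. Array medians of the 35556 probe sets ran from 174.2 to 203.6, and no detection call came with them.

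An offset of 16 was added, log2 was taken, and the arrays were quantile-normalized. Of the probe sets 21789 had 1 symbol in the platform annotation, 1621 had several and 12146 had none. The brightest probe set per gene was kept, giving 19938 genes. Limma 3.58.1 (R 4.3.3) fitted 1 mean per group over all 6 arrays with 3 residual and 3.89 prior degrees of freedom, a variance trend and Benjamini-Hochberg adjustment over all genes. The spread is thus pooled over the groups. The fit was tested on simulated data. The members, the gene lists and the rule for named genes were chosen with earlier results of these data known. That rule names the 9 genes, each other retinoid gene called in any comparison, and the 2 of smallest p in lists with none called. Of 66 listed symbols of other retinoid genes 60 were measured and the rest were not analysed here. No low-value filter was used. Alternatives were offsets of 1 and 64, values as deposited, a filter on the dimmest 30% of genes, probe set means, other eBayes settings, only the 4 arrays compared, a replicate block, Xist as a covariate and each array left out.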

Additional observations from a re-analysis of the deposited data

How the results depend on the processing

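Across 16 other settings, each tried alone, Rdh10, Aldh1a3, Crabp1 and Rbp2 kept the direction of their differences between DKO and control and between DKO and Ovol1 KO. The cause of the changes below was not tested. With Xist as a covariate, limma called 8 genes in DKO against control in place of 639 and 73 in DKO against Ovol1 KO in place of 429. As given above, that fit cannot tell Xist from replicate number. The 9 genes then held 0 calls in place of 4 against control and 1 in place of 3 against Ovol1 KO, and the other retinoid genes 0 in both. The robust eBayes setting called 2 of the 9 against control. Fitting only the 4 arrays compared called 738 genes against Ovol1 KO. Of the other retinoid genes, 2 were called in each of the comparisons with DKO. Against control the count was 1 with an offset of 1, 1 with an offset of 64, 1 with only the 4 arrays, and 0 without the dimmest 30% of genes, without the eBayes trend or with the robust setting. Against Ovol1 KO it was 1 without the dimmest 30% and 4 with only the 4 arrays.

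With single arrays left out, where a lone array is assumed to vary like the other groups, the counts over all genes ran from 258 to 735 in DKO against control, from 88 to 738 in DKO against Ovol1 KO and from 0 to 4 in Ovol1 KO against control. The lowest were without DKO 1 and without Ovol1 KO 1. For the 9 genes they ran from 3 to 4 against control and from 1 to 4 against Ovol1 KO, and for the other retinoid genes from 1 to 2 and from 0 to 4. Some differences that had not passed turned sign with an array left out. In DKO against Ovol1 KO this was Cyp26a1 (-0.25 to 0.11). In Ovol1 KO against control these were Rdh10 (-0.52 to 0.64), Dhrs9 (-0.35 to 0.67), Aldh1a3 (-0.57 to 0.50), Crabp2 (-0.015 to 0.32), Aldh1a7 (-0.32 to 0.065) and Cyp2s1 (-0.58 to 0.42, positive at 0.25 without Ovol1 KO 1 as well). With Xist as a covariate Dhrs9 was 0.24 in DKO against control and Aldh1a3 was 0.44 in Ovol1 KO against control, also of turned sign.

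The replicate numbers were taken as names only. Deviations of same-numbered arrays correlated at 0.69 between Ovol1 KO and control, 0.15 between DKO and control and 0.087 between DKO and Ovol1 KO, and DKO 1 correlated more with Ovol1 KO 2 (0.965) than with Ovol1 KO 1 (0.944). With the replicate number as a block, 1069 genes were called in DKO against control and 805 in DKO against Ovol1 KO, with 6 and 5 of the other retinoid genes, and Rbp2 was called in DKO against Ovol1 KO as well. The SE against control was then 0.13 for Rdh10 and 0.13 for Aldh1a3. Dim genes such as Rxrg, Aldh1a1 and Cyp26a1 have no detection call, which limits what their differences can show.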
